A study of Mus musculus with 6 samples.

Results

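The p53 transcription factor and 9 of its direct target genes were examined after knockdown of the USF factors in Neuro2a, a line of mouse neuroblastoma cells often used in place of neurons. The 10 genes were chosen by name. A gene was described where the annotation of the Affymetrix Mouse Gene 1.0 ST array gave its transcript cluster (the set of probes that read 1 gene) exactly 1 gene symbol. By this rule 7 of the 10 genes were measured, out of 16583 genes in all: Mdm2, Ccng1, Btg2, Plk2, Bbc3, Trp53inp1 and Zmat3, each with 1 cluster. Trp53 and Bax had no cluster under their own symbol, and the cluster of Cdkn1a carries a second symbol, so these 3 genes were not analysed here. The results are therefore on p53 targets, without p53 itself. The tested cells, labelled USFKD (3 arrays), were transfected with microRNA-based RNA interference vectors against USF1 and USF2, and the comparison cells, labelled Control (3 arrays), with the empty vector. Vectors of the pcDNA6.2-GW/EmGFP-miR system were introduced by lipofection in all samples, and the share of cells that took one up is not given in the sources used here. Replicates are called biological in the titles, but separate cultures are not named, so the spread behind each p-value may be technical.

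The p53 protein binds a response element made of 2 half-sites and activates genes that halt the cell cycle, trigger apoptosis or shut p53 off again. Mdm2 is the ubiquitin ligase that marks p53 for destruction, and it is itself a p53 target, which closes a feedback loop. The USF proteins are transcription factors of the bHLH-zipper class that bind the E-box CACGTG, and USF1 has been reported to stabilise the p53 protein. The comparison of knockdown with empty vector therefore asks whether p53 targets are lower when USF is reduced.

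RefSeq promoter windows (assembly GRCm38.p6, 250 bases before to 50 bases after each start) were matched by symbol for 5 of the 7 measured genes, with 7 windows in all. They were searched for CACGTG and for the p53 half-site consensus, both of which read the same on either strand, and no match of one overlapped the other. The E-box was in 1 of the 7 windows and the half-site in 2 of them, where 7.15% and 8.36% of all 32851 RefSeq windows hold these motifs. The 250 bases before the start are shown for the 3 windows with a match, with the match in capitals. A p53 response element has 2 half-sites, and the windows of Mdm2 and Ccng1 held 1 each. Sequence outside the windows was not searched. That of Bbc3 lies on the plus strand at chr7:16310181-16310430, before one of its 3 listed starts, and its E-box begins 64 bases before that start. That of Mdm2 lies on the minus strand at chr10:117710759-117711008, with a half-site that begins 186 bases before the start. That of Ccng1 lies on the minus strand at chr11:40755287-40755536, with a half-site that begins 185 bases before the start.
Bbc3: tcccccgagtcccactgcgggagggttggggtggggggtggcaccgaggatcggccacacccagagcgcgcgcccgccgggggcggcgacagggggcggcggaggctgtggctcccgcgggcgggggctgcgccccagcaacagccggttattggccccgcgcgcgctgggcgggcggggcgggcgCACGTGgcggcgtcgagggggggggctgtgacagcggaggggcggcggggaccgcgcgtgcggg
Mdm2: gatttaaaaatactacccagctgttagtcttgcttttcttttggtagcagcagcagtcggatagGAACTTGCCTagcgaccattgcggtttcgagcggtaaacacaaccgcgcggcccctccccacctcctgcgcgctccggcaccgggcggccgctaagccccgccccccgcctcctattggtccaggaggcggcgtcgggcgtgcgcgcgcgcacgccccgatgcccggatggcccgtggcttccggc
Ccng1: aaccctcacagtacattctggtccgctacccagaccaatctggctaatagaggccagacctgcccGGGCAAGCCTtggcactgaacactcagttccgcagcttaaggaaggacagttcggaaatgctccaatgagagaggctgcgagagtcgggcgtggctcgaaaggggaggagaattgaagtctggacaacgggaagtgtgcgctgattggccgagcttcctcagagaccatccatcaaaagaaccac
The windows of Btg2 and Plk2 held neither motif. Of the genes not analysed here, the windows of Trp53 and Bax held 1 and 2 E-boxes and 1 half-site each, and 1 of the windows of Cdkn1a held 2 half-sites and 0 E-boxes. A match is a string of letters, and binding was not measured.

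The deposited log2 values are centred on the median of each cluster across the 6 arrays, which allows comparisons between arrays and keeps no level of a gene. A trace of the level was left in the rounding of the numbers, which put Mdm2 and Ccng1 among the clusters of a brighter class (log2 signal of 8 to 16 before centring) and the other 5 genes in the dimmer class (4 to 8). Of all genes 44.1% were in the brighter class. Of the sympathetic neuroblastoma and neuron markers 8 of 10 measured were in it, and of the markers of glia, fibroblasts, macrophages, endothelium and epithelium 2 of 28 measured. The targets of the interference were each lower on every knockdown array than on any empty vector array, with Usf1 at 0.682-fold and Usf2 at 0.770-fold, but their limma adjusted p over all genes was 0.320 and 0.348. Knockdown array 2 stood apart, with a standard deviation over all clusters of 0.159 against 0.0531 to 0.0780 on the other 5 arrays. On it the dimmer class had a median of 0.071 and the brighter class one of -0.028, so the changes of the 7 genes are also given without it. Without it Usf1 and Usf2 were at 0.668-fold and 0.764-fold.

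None of the 7 p53 targets passed the threshold between knockdown and empty vector cells. In these bulk samples fewer cells that express a gene and less RNA per cell cannot be told apart. Their changes (knockdown minus empty vector, log2) lay between -0.134 for Trp53inp1 and 0.036 for Ccng1, with 3 genes above 0 and 4 below, and limma gave each an adjusted p of 0.996 over all genes. At an adjusted p of 0.05, 0.00603% of all genes were called (1 of 16583). At an unadjusted p of 0.05 the count was 1 of the 7, Trp53inp1, where 4.25% of all genes passed. The median change of the 7 genes was -0.046, beside -0.00066 over all genes, and 4 of 7 below 0 compares with 50.4% of all genes. Groups that did not overlap were found for 1 of the 7 genes, where 10.3% of all genes had them. Without knockdown array 2, 0 of the 7 genes passed an unadjusted p of 0.05 in limma, against 7.53% of all genes, and over 13 alternative settings the limma adjusted p of the 7 genes lay between 0.0521 and 1.00.

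**Figure D1:**
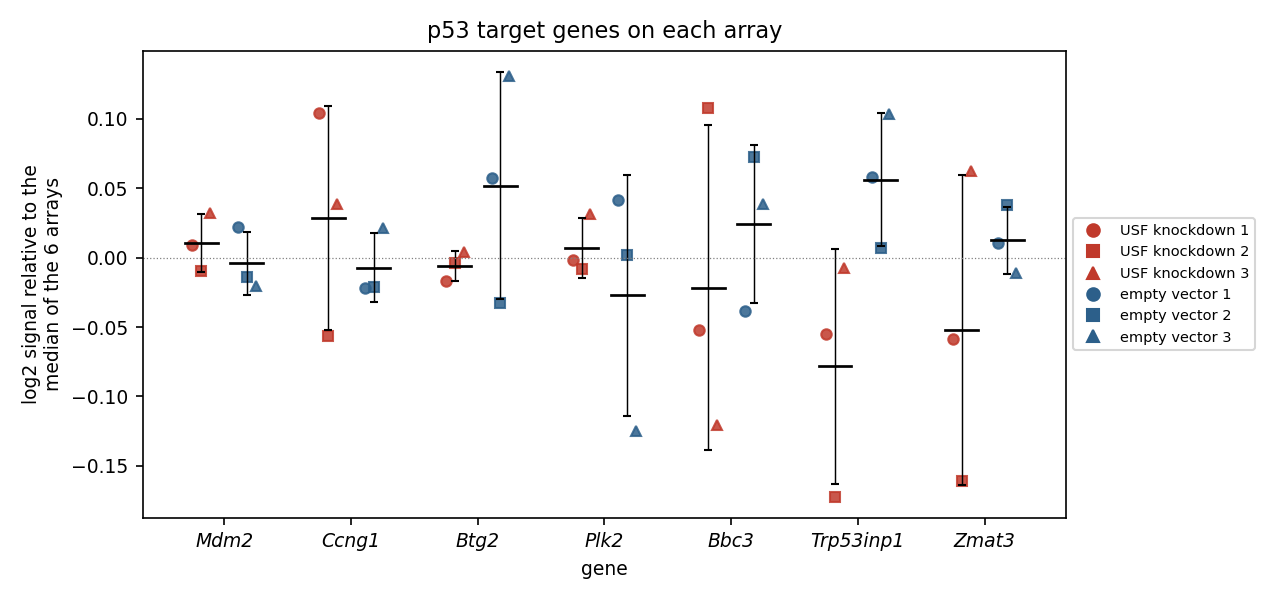
Relative log2 signal of the 7 measured p53 target genes on each array (y axis, relative to the gene's median over the 6 arrays), with the 3 USF knockdown arrays in red left of the 3 empty vector arrays in blue. Horizontal bars are group means and error bars are SDs (n = 3). The groups are apart for Trp53inp1, where all 3 knockdown arrays lie below all 3 empty vector arrays, and overlap for the other 6 genes.

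The feedback genes of p53 overlapped between the groups. Mdm2 (cluster 10372668), the p53 ubiquitin ligase, had relative log2 signals of 0.0093, -0.0093 and 0.032 on knockdown arrays 1, 2 and 3, against 0.022, -0.014 and -0.020 on empty vector arrays 1, 2 and 3. The groups overlapped, with means of 0.011 ± 0.021 and -0.0040 ± 0.023 (SD, n = 3 each). The change was 0.015 ± 0.040 (SE), or 1.01-fold, with a 95% interval of 0.947-fold to 1.08-fold (limma adjusted p = 0.996). Leaving out knockdown array 2 gave 0.025, and leaving out knockdown array 3 gave 0.0040. Ccng1 (cluster 10385271) encodes cyclin G1, which brings a phosphatase to Mdm2 and so raises its activity. Its signals were 0.104, -0.056 and 0.039 on knockdown arrays 1, 2 and 3, against -0.022, -0.021 and 0.021 on empty vector arrays 1, 2 and 3. Knockdown array 2 was the lowest of all 6 and knockdown array 1 the highest, so the knockdown group enclosed the other. Ccng1 averaged 0.029 ± 0.081 with knockdown and -0.0072 ± 0.025 with empty vector (SD, n = 3 each), a change of 0.036 ± 0.052 (SE), or 1.03-fold (95% interval 0.944 to 1.11, limma adjusted p = 0.996). Without knockdown array 2 the change was 0.079 ± 0.044 (SE, limma adjusted p = 0.732), and without knockdown array 1 it was -0.0017. The order of the groups for Ccng1 thus rested on 1 array.

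The targets that restrain growth or act as kinases also overlapped between the groups. Btg2 (cluster 10357875) is an antiproliferative protein that speeds the shortening of mRNA tails. It was at -0.017, -0.0042 and 0.0042 on knockdown arrays 1, 2 and 3, against 0.058, -0.033 and 0.131 on empty vector arrays 1, 2 and 3. The knockdown arrays lay close together while the empty vector arrays lay on both sides of them, at means of -0.0057 ± 0.011 and 0.052 ± 0.082 (SD, n = 3 each). The change of Btg2 was -0.058 ± 0.051 (SE), or 0.961-fold (95% interval 0.885 to 1.04, limma adjusted p = 0.996), and it was -0.058 without knockdown array 2, -0.018 without empty vector array 3 and -0.100 without empty vector array 2. Plk2 (cluster 10407126) is a polo-like kinase that p53 induces and that in neurons also responds to synaptic activity. Its signals were -0.0020, -0.0083 and 0.032 on knockdown arrays 1, 2 and 3, against 0.042, 0.0020 and -0.125 on empty vector arrays 1, 2 and 3. Empty vector array 3 was far below the other 5, and without it the change turned to -0.015, while it was 0.042 without knockdown array 2. Leaving out empty vector array 1 gave 0.069. With all arrays Plk2 averaged 0.0072 ± 0.022 with knockdown and -0.027 ± 0.087 with empty vector (SD, n = 3 each), a change of 0.034 ± 0.053 (SE), or 1.02-fold (95% interval 0.940 to 1.12, limma adjusted p = 0.996).

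Among the targets tied to cell death, Trp53inp1 was lower on every knockdown array, and it was the gene of the 7 with the smallest p. Trp53inp1 (cluster 10503259) is a stress-induced protein that promotes p53-dependent apoptosis and takes part in autophagy. Its signals were -0.055, -0.172 and -0.0073 on knockdown arrays 1, 2 and 3, against 0.058, 0.0073 and 0.103 on empty vector arrays 1, 2 and 3. The groups did not overlap, but the highest knockdown array (3) and the lowest empty vector array (2) were nearly level. Of all genes, 5.95% had all knockdown arrays below all empty vector arrays. Trp53inp1 averaged -0.078 ± 0.085 with knockdown and 0.056 ± 0.048 with empty vector (SD, n = 3 each), a change of -0.134 ± 0.055 (SE), or 0.911-fold (95% interval 0.833 to 0.996). In limma the unadjusted p was 0.0425 and the adjusted p 0.996, and an exact permutation test (two-sided) gave p = 0.10, the lowest possible with 3 arrays a group. Of all genes, 5.46% had a larger change in either direction. Knockdown array 2 held the lowest value, and without it the change was -0.087 ± 0.047 (SE), with a limma unadjusted p of 0.0938 and an adjusted p of 0.723, so the unadjusted p no longer passed. It also missed 0.05 without knockdown array 1 or without empty vector array 1 or 3 (up to 0.137), while the change stayed below 0 in all 6 fits (-0.170 to -0.087).

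Bbc3 (cluster 10550290) encodes PUMA, a BH3-only protein that sets off the mitochondrial pathway of apoptosis. Of its 3 promoter windows 1 held the E-box. Bbc3 was at -0.052, 0.108 and -0.120 on knockdown arrays 1, 2 and 3, against -0.039, 0.072 and 0.039 on empty vector arrays 1, 2 and 3. Knockdown array 2 was the highest of all 6 arrays and the other knockdown arrays were the lowest. With all arrays Bbc3 averaged -0.022 ± 0.117 with knockdown and 0.024 ± 0.057 with empty vector (SD, n = 3 each), a change of -0.046 ± 0.066 (SE), or 0.969-fold (95% interval 0.871 to 1.08, limma adjusted p = 0.996). Without knockdown array 2 it was -0.110 ± 0.050 (SE), or 0.926-fold, with a limma unadjusted p of 0.0529 and an adjusted p of 0.659. Bbc3 is in the dimmer class, whose median was above 0 on that array, and the part of this shift in the value was not tested. Without knockdown array 3 the change of Bbc3 was 0.0036. Zmat3 (cluster 10497673) is a zinc finger protein that binds RNA and acts downstream of p53. Its signals were -0.059, -0.161 and 0.062 on knockdown arrays 1, 2 and 3, against 0.011, 0.038 and -0.011 on empty vector arrays 1, 2 and 3. Here knockdown array 2 was the lowest and knockdown array 3 the highest of the 6, so the groups overlapped. Zmat3 averaged -0.052 ± 0.112 with knockdown and 0.013 ± 0.024 with empty vector (SD, n = 3 each), a change of -0.065 ± 0.061 (SE), or 0.956-fold (95% interval 0.867 to 1.05, limma adjusted p = 0.996). Without knockdown array 2 that of Zmat3 was -0.011 ± 0.049 (SE), and without knockdown array 3 it was -0.122.

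**Figure D2:**
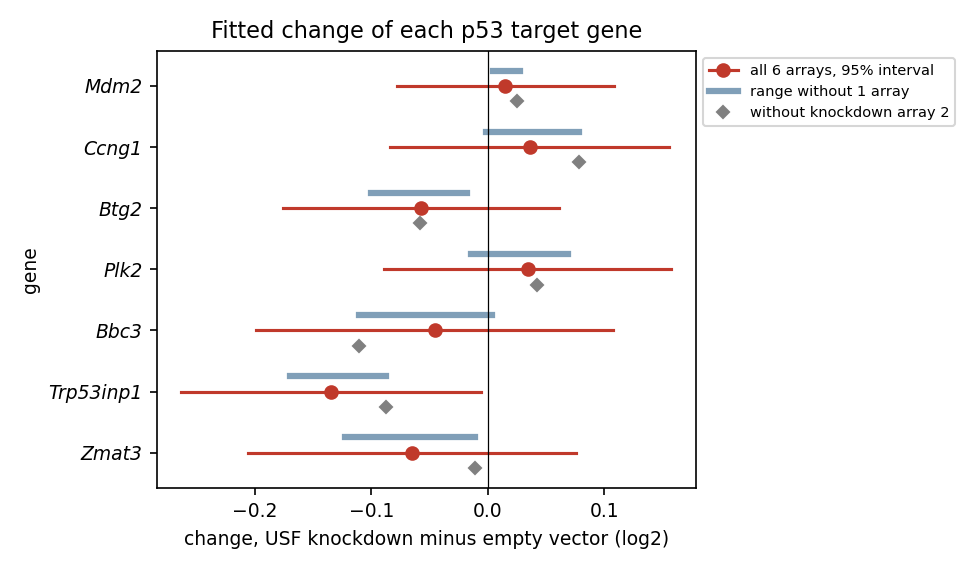
Fitted change of each p53 target gene (x axis, USF knockdown minus empty vector, log2). Red points and lines are the change and its 95% interval over all 6 arrays, blue bars the range of the 6 fits that leave out 1 array, and grey diamonds the change without knockdown array 2. The interval of Trp53inp1 ends just below 0 (-0.263 to -0.0058) and those of the other 6 genes hold 0.

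On each array the 7 genes lay on both sides of their medians, though not evenly. On knockdown array 2, 1 gene (Bbc3) was above its median and 6 below, and on knockdown array 3, 5 were above and 2 below (Bbc3 and Trp53inp1). On knockdown array 1, 2 genes were above (Ccng1 and Mdm2) and 5 below. For empty vector arrays 1, 2 and 3 the counts were 5, 4 and 4 above and 2, 3 and 3 below. Relative to the empty vector mean, the median of the 7 genes was -0.069, -0.049 and 0.036 on knockdown arrays 1, 2 and 3. Leaving out knockdown array 2 gave a median change of -0.011. The SD between knockdown arrays was highest for Bbc3, Zmat3, Trp53inp1 and Ccng1 (0.081 to 0.117) and lowest for Btg2, Mdm2 and Plk2 (0.011 to 0.022), and it did not follow the brightness class.

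The wider p53 pathway held 0 genes that passed the adjusted threshold in limma over all genes. Its lists were written from textbook knowledge with earlier results of these data known, so their shares are descriptions and not tests. Of the genes named from these lists, Xpc, Sesn2, Ankra2, E2f1 and Bak1 passed it in 1 alternative, the fit with array quality weights (adjusted p of 0.0052 to 0.0413), which rests in effect on 1 knockdown array and in which 1111 genes passed. Of 35 measured of 40 other direct p53 targets, 2 were higher and 2 lower at an unadjusted p of 0.05, and 31 did not pass, with a median change of -0.014 (-0.017 without knockdown array 2). This is 11.4% of the list, where 4.25% of all genes passed, 1.6% higher and 2.65% lower. Without knockdown array 2 the list had 3 higher and 1 lower at an unadjusted p of 0.05. In that fit 7.53% of all genes passed, 417 higher and 831 lower. Xpc, which recognises damaged DNA for nucleotide excision repair, had relative log2 signals of -0.114, -0.089 and -0.045 on knockdown arrays 1, 2 and 3, against 0.045, 0.206 and 0.159 on empty vector arrays 1, 2 and 3. Its knockdown arrays all lay lower, at a change of -0.219 ± 0.053 (SE) or 0.859-fold (limma unadjusted p = 0.0036, adjusted p = 0.899). Of all genes, 0.681% had a larger change. Sesn2, a stress-induced inhibitor of mTORC1 that ATF4 also activates, was at 0.051, 0.099 and 0.159 on knockdown arrays 1, 2 and 3, against -0.110, -0.081 and -0.051 on empty vector arrays 1, 2 and 3. For Sesn2 the change was 0.184 ± 0.046 (SE) or 1.14-fold (limma unadjusted p = 0.0041, adjusted p = 0.911), in the opposite direction to Xpc. Both kept an unadjusted p of at most 0.0171 in each fit that left out 1 array, and their adjusted p without knockdown array 2 was 0.431 and 0.432. The next of these targets were the kinase Plk3, a relative of Plk2, at 0.131 ± 0.048 (SE, limma unadjusted p = 0.0262) (0.144 without knockdown array 2) and the ankyrin repeat protein Ankra2 at -0.123 ± 0.049 (SE, limma unadjusted p = 0.0359), each with an adjusted p of 0.996. Ankra2 was at -0.111 without knockdown array 2, with an unadjusted p of 0.0563.

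Of 23 measured of 26 listed regulators of p53, 0 passed at an unadjusted p of 0.05 in limma, where 4.25% of all genes did. By sign 7 were above 0 and 16 below, against 50.4% of all genes below 0, and the median change was -0.020, or 0.020 without knockdown array 2. Those with the smallest p were Daxx, a histone chaperone that also binds Mdm2, at 0.084 ± 0.047 (SE), the chromatin reader Ing1 at -0.069 ± 0.042 (SE), Usp7, which removes ubiquitin from Mdm2 and p53, at 0.080 ± 0.051 (SE), and Ppp1r13l, the p53 inhibitor iASPP, at -0.083 ± 0.054 (SE), with limma unadjusted p of 0.116 to 0.160. The change of Ppp1r13l was -0.129 without knockdown array 2 (limma unadjusted p = 0.0190, adjusted p = 0.563) and -0.044 without knockdown array 3. Daxx was at 0.055 without knockdown array 2, and Usp7 at 0.045 without empty vector array 2. The p53 relatives Trp63 and Trp73 were at -0.041 ± 0.051 and -0.022 ± 0.066 (SE), both in the dimmer class. Over the fits without 1 array Trp63 lay between -0.063 and -0.00087 and Trp73 between -0.090 (without knockdown array 2) and 0.013.

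Cell cycle genes that p53 lowers through p21 and the DREAM repressor complex had 17 measured of 18 listed, all in the brighter class. In limma 1 was lower at an unadjusted p of 0.05 and 0 higher, where 2.65% and 1.6% of all genes were. By sign 4 genes were above 0 and 13 below, where 50.4% of all genes were below 0, and the median change was -0.031. The groups did not overlap for 4 of 17 genes, all lower with knockdown, where 5.95% of all genes had groups apart in this direction. The leading member was Birc5, the apoptosis inhibitor survivin, at -0.119 ± 0.050 (SE, limma unadjusted p = 0.0443), followed by the S phase factor E2f1 at -0.097 ± 0.049 (SE), the mitotic factor Foxm1 at -0.076 ± 0.042 (SE) and the mitotic kinase Plk1 at -0.058 ± 0.043 (SE). For Birc5 and E2f1 the groups were apart but nearly level. The highest knockdown and lowest empty vector arrays were at -0.0034 and 0.0034 for Birc5 and at -5.6e-05 and 5.6e-05 for E2f1. On knockdown array 2 the list median was -0.067 against the empty vector mean, beside -0.025 and -0.014 on knockdown arrays 1 and 3. Without that array the unadjusted p of Birc5 was 0.0952 and the list median -0.020, and E2f1 was at -0.064 without knockdown array 1. The brighter class as a whole was lower on that array (above), and its part in this list was not tested.

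Other BCL2 family members, which decide on the opening of the mitochondrial outer membrane, had 13 measured of 14 listed and a median change of 0.0034 (0.0018 without knockdown array 2). In limma 1 of the 13 was higher at an unadjusted p of 0.05 and 0 lower, where 1.6% and 2.65% of all genes were. Bak1, which like Bax forms pores in that membrane, was at 0.064, 0.011 and 0.102 on knockdown arrays 1, 2 and 3, against -0.087, -0.083 and -0.011 on empty vector arrays 1, 2 and 3. It was higher on all 3 knockdown arrays, at 0.119 ± 0.046 (SE) or 1.09-fold (limma unadjusted p = 0.0333, adjusted p = 0.996), where 4.33% of all genes had groups apart in this direction, and at 0.143 without knockdown array 2. The BH3-only genes Bcl2l11, Bid and Bik were at 0.053 ± 0.044, 0.052 ± 0.050 and -0.072 ± 0.075 (SE), and none had groups apart. Bcl2l11 and Bid were at 0.031 and 0.016 without knockdown array 2, and Bik lay between -0.121 (without empty vector array 2) and -0.0055 (without empty vector array 1) over the fits without 1 array. Of 12 measured of 16 relatives of the 10 genes, 1 was higher at an unadjusted p of 0.05, the Plk3 named above, where 1.6% of all genes were, and the median was -0.025, or 0.00058 without knockdown array 2. Cdkn1c, the cyclin-dependent kinase inhibitor p57, was at 0.148 ± 0.070 (SE, limma unadjusted p = 0.0699) and at 0.095 without that array, or 0.096 without empty vector array 3. Ccng2, a relative of cyclin G1, was at -0.118 ± 0.070 (SE) and the antiproliferative Tob2 at 0.083 ± 0.051 (SE), and without that array they were at -0.047 and 0.045.

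**Figure D3:**
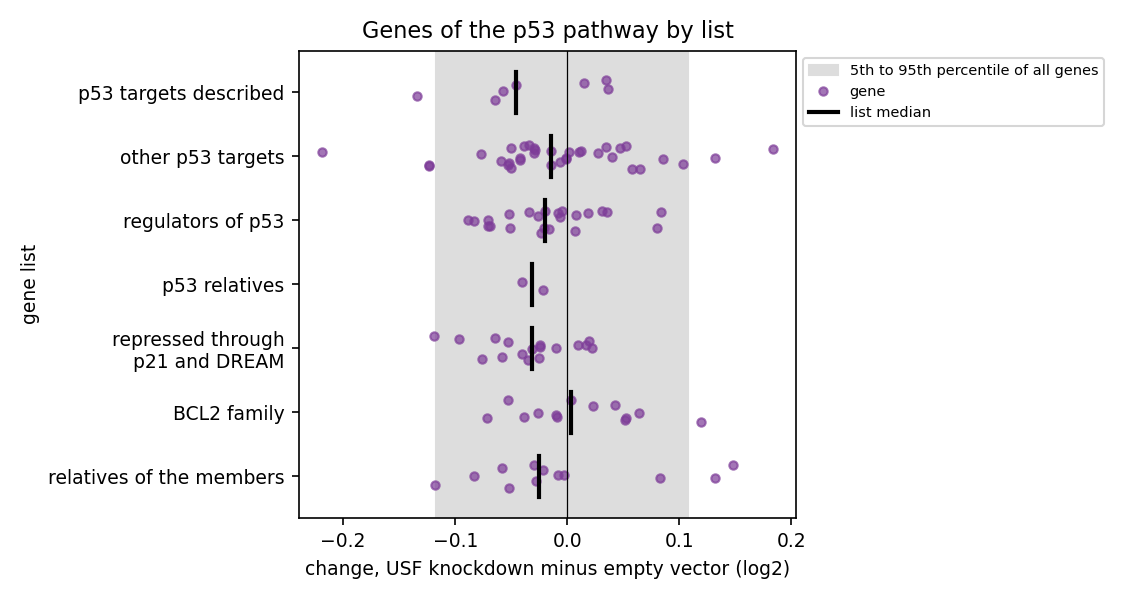
Fitted change of each measured gene (purple points; x axis, USF knockdown minus empty vector, log2) in the p53 pathway lists, which run down the y axis, with black bars at the list medians and a grey band from the 5th to the 95th percentile of all genes (-0.117 to 0.107). List medians lie between -0.046 and 0.0034, and Xpc (-0.219) and Sesn2 (0.184) are the points farthest from 0.

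Markers of cell types other than neuroblastoma cells had 28 measured of 36 listed. In limma 0 of them passed at an unadjusted p of 0.05, where 4.25% of all genes did, and their median was 0.035, 0.116 and -0.024 on knockdown arrays 1, 2 and 3 against the empty vector mean, beside 0.013, 0.025 and -0.040 on empty vector arrays 1, 2 and 3. Nearly all are in the dimmer class, as are 5 of the 7 p53 targets, of which Bbc3 alone was above 0 on knockdown array 2. The part of these shifts in the values of the p53 targets was not tested. Of the 10 measured neuroblastoma and neuron markers 3 were lower at an unadjusted p of 0.05 in limma and 0 higher, where 2.65% and 1.6% of all genes were, and 0 passed the adjusted threshold. Of these markers 5 were above 0, up to 0.062 for Gata3, and 5 below. Their median change was -0.021, or 0.021 without knockdown array 2. The 3 lower at that p were named after their values were seen. They were Dbh, which makes noradrenaline, at -0.247, the secretory granule protein Chgb at -0.147 and the neuronal RNA-binding protein Elavl4 at -0.127. Without knockdown array 2 these 3 were at -0.205, -0.124 and -0.120. The part of this difference in the values of the p53 targets was not tested.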

How the data were processed

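Labelled cDNA was made from RNA of 6 Neuro2a samples with Ambion and Affymetrix WT kits, per the labels' protocols. The authors deposited log2 values of 22891 clusters centred on the cluster's median over the arrays. The log2 scale is not stated but was read from the numbers, which differ between arrays by whole multiples (tolerance 0.05) of the rounding step that single-precision numbers have at 4 to 8 or at 8 to 16. How background was corrected and arrays were normalized is not given in the sources used here. The step also gave the brightness class: 9972 clusters brighter, 12903 dimmer (those with arrays on both sides of 8 included) and 16 unknown.

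Names came from the platform annotation (18087 clusters with 1 symbol, 1145 with several, 3659 unnamed); through Entrez identifiers 18023 matched RefSeq, with 0 symbols changed. Clusters of 1 symbol were averaged per gene. Knockdown minus empty vector was fitted over all 16583 genes in limma (version 3.58.1, R version 4.3.3; lmFit, eBayes, Benjamini-Hochberg adjustment; 4 residual and 3.79 prior degrees of freedom). The median SE of a change was 0.0561, and the number of arrays limits this precision. Single genes also had an exact permutation test (SciPy 1.17.1). Members and lists were chosen with earlier results of these data known. Named are the 7 measured members, Usf1, Usf2 and up to 4 genes with the smallest p per list. Alternatives were quantile normalization, array centring, single clusters, the brighter class only, robust variance, array quality weights, a replicate block and leaving out each array. Deviations of same-numbered arrays 1, 2 and 3 correlated across genes at 0.0031, 0.082 and 0.036, and those of differently numbered arrays at -0.0942 to 0.0535. The highest was that of the arrays numbered 2. These weak values do not settle whether arrays were paired, and the main fit took no pairs.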

Additional observations from a re-analysis of the deposited data

How the results depend on the processing

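Of 86 refitted changes of the 7 genes under 13 alternatives, 83 kept their direction and 0 passed an adjusted p of 0.05 in limma. The lowest adjusted p was 0.0521, for Trp53inp1 with array quality weights, which put 33 on knockdown array 1 against 0.136 and 0.441 on knockdown arrays 2 and 3, so that the knockdown mean was in effect 1 array; under the other alternatives the lowest was 0.659. At an unadjusted p of 0.05 that fit passed 3 of the 7 genes, Trp53inp1, Bbc3 and Ccng1. In the same fit 4356 of all 16583 genes passed. Ccng1 turned to -0.0017 without knockdown array 1 (range over the 6 fits without 1 array -0.0017 to 0.079), Bbc3 to 0.0036 without knockdown array 3 (-0.110 to 0.0036) and Plk2 to -0.015 without empty vector array 3 (-0.015 to 0.069). The ranges were 0.0040 to 0.028 for Mdm2, -0.100 to -0.018 for Btg2, -0.170 to -0.087 for Trp53inp1 and -0.122 to -0.011 for Zmat3. The median of the 7 genes lay between -0.055 and 0.0036 in these fits. Over all genes, the 1 call (Dpp7, not a p53 target) became 0 with the replicate block (636 genes at an unadjusted p of 0.05) and 0 or 1 without 1 array (369 to 1248 genes), and 1111 with array quality weights. The replicate block, where numbers share only a number, changed no call of the 7 genes. The brighter class alone holds only Mdm2 and Ccng1, so it gave no median. The fixed design also listed Trp53, Cdkn1a and Bax, which were not run. With 3 arrays per group and an adjustment over 16583 genes, changes as small as these are not detectable as calls, and their absence is not shown. A median SE of 0.0561 means that a typical gene needed a 1.09-fold difference for an unadjusted p of 0.05. The array may compress folds, and signal over background is not known from centred values.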
